A study of Mus musculus with 18 samples.

Results

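Genes of cholesterol synthesis and lipogenesis were examined in the liver of mice that carry 1 intact copy of Otub2, which encodes a deubiquitinating enzyme. The 35 genes were taken by symbol from the 55291 rows of the liver count table, and each symbol had a row. They comprised 17 sterol enzymes, 1 sterol carrier, 5 genes of SREBP control, 8 genes of fatty acid synthesis and 4 of triglyceride synthesis. The series measured RNA of whole liver and whole pancreas with a bulk form of MARS-seq, which counts transcripts by their 3′ ends. Liver gave 5 HET libraries (OTUB2 +/-, 1 intact copy) and 2 WT libraries (OTUB2 +/+, 2 intact copies). The 11 pancreas libraries comprised 3 HOM (OTUB2 -/-, 0 intact copies), 5 HET and 3 WT, so that a liver without Otub2 was not analysed here. By their labels the HOM pancreata were all male, and the HET and WT pancreata came from both sexes. The labels say that housing was normal, and for the livers they give neither the make of the allele nor strain, sex, age, feeding state or hour of collection. Nothing says that each library came from a separate animal, so p-values measure only the spread between these samples.

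Cholesterol is built from acetyl-CoA by way of mevalonate, squalene and lanosterol, and the same acetyl-CoA feeds the making of fatty acids and their storage as triglycerides. Both branches are driven by SREBP transcription factors, which Scap escorts out of the endoplasmic reticulum when sterols are scarce and which the Insig proteins hold back when sterols are plentiful. In liver, SREBP-2 acts mainly on sterol genes and SREBP-1c, a form made from Srebf1, mainly on fatty acid genes, which respond to feeding and insulin. These statements are background and not results of these libraries.

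The libraries held 264660 to 1686234 counts in HET and 155201 and 342609 in WT. Levels are given in CPM, the counts of a gene per 1000000 counts of its library, and 3 counts correspond to 1.78 CPM in the deepest liver (HET 5) and to 19.3 CPM in the shallowest (WT 1). Otub2 itself had 1, 0, 1, 1 and 2 counts in HET 1 to HET 5 and 1 and 0 in WT 1 and WT 2. These few 3′ counts check nothing, because which part of the gene was deleted is not given in the sources used here. Hepatocyte markers were present throughout, with 11112 to 33895 CPM of Alb in HET and 26746 and 18984 CPM in WT 1 and WT 2. Xist had 0 counts in all 7 livers, and genes of the Y chromosome had 2 to 11 counts in the HET livers and 2 and 4 in the WT livers. Of 6 adipocyte markers, Adipoq, Plin1 and Lep held at most 2 counts in any liver. Cfd had 0 to 9.31 CPM in HET and 32.2 and 14.6 CPM in WT, where each value is 5 counts. Fabp4 had 4.38 to 12.5 CPM in HET and 6.44 and 14.6 CPM in WT. Cidec had 1.19 to 7.45 CPM in HET and 0 and 14.6 CPM in WT. The 6 adipocyte markers summed to 8.77 to 26.1 CPM in HET and to 38.7 and 43.8 CPM in WT. Of 5 acinar markers, Cela1 had 95.6 to 136 CPM in HET and 70.9 and 35.025 CPM in WT, Cpa1 and Amy2b had 0 counts in every liver, Pnlip had 1 count, in WT 2, and Ctrb1 had 94 counts, in HET 5. The part of adipocyte or acinar RNA in the members' values was not tested.

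None of the 27 members that passed the filter on low counts and were tested differed between HET and WT livers at an adjusted p under 0.05 (edgeR's quasi-likelihood test, adjusted over 4803 genes). The test called 0 of the 4803 genes, 0% of them, and DESeq2 called 16 genes and 0 members. At an unadjusted p under 0.05, 2 members were higher in HET, Stard4 and Fdps, and 0 were lower. Among all tested genes 5.39% passed that mark on the higher side and 4.96% on the lower side, so 2 of 27 lies near the background. In Stard4 all 5 HET livers lay above both WT livers, as they did in 6.95% of all tested genes, and in 0 members did they lie below both, as they did in 11.1%. The median log2 fold change, HET over WT, was 0.04 over the 27 members and 0.03 over all tested genes. In whole tissue, fewer cells of a type and less RNA per cell cannot be told apart.

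**Figure D1:**
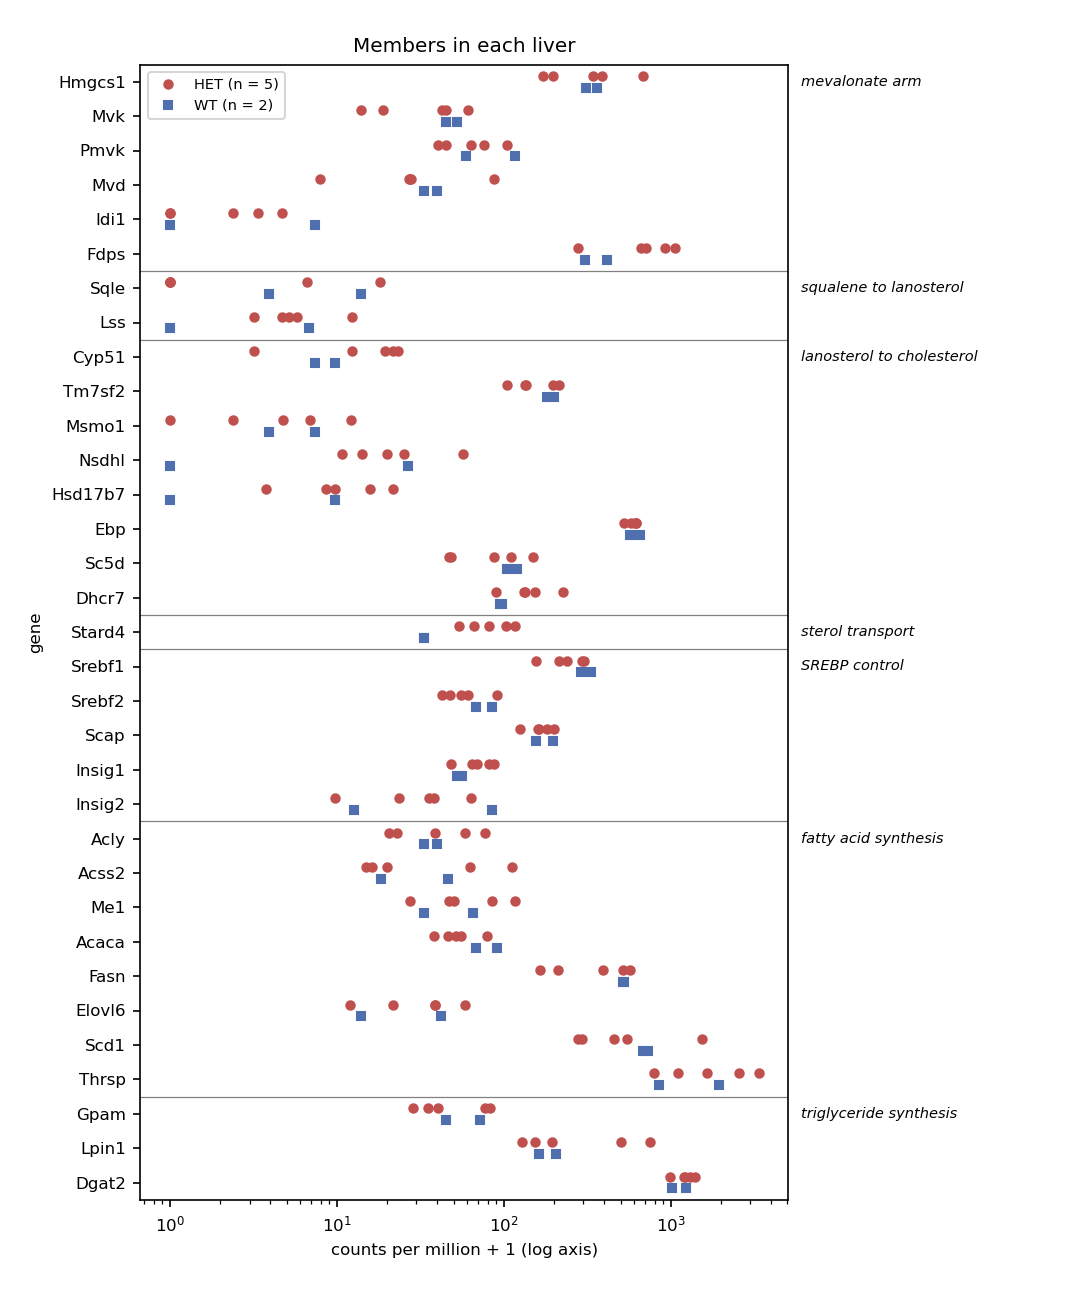
CPM of the 33 members with any count, plus 1, on a log axis, with HET livers as circles above WT livers as squares for each gene. Stard4 is the member in which the groups do not touch, with 52.7 to 115 CPM in HET and 32.2 and 32.1 CPM in WT.

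The promoters of 4 members, chosen after values were seen, are shown because they cover a sterol enzyme, a brake on SREBP and a pair of genes of fatty acid synthesis. They are the 250 bases before the RefSeq start site (build GRCm38.p6, 5′ to 3′ on the gene's strand): Hmgcs1 at chr13:119690101-119690350 on the plus strand, Insig1 at chr5:28071162-28071411 on the plus strand, Fasn at chr11:120824548-120824797 on the minus strand and Thrsp at chr7:97417551-97417800 on the minus strand. Capitals mark matches, on either strand, to an SRE-like motif (TCACNCCAC), a CCAAT box (CCAAT, or ATTGG on the other strand) and an E-box (CACGTG).
Hmgcs1: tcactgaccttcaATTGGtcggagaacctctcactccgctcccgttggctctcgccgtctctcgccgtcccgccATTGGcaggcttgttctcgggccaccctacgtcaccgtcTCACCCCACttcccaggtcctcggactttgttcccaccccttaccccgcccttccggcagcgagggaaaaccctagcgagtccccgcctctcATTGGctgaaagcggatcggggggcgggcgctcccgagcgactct
Insig1: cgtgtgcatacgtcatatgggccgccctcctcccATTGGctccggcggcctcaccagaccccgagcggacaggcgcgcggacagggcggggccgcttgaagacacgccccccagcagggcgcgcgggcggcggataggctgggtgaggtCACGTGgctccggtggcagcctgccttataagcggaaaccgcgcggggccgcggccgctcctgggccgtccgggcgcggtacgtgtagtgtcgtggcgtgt
Fasn: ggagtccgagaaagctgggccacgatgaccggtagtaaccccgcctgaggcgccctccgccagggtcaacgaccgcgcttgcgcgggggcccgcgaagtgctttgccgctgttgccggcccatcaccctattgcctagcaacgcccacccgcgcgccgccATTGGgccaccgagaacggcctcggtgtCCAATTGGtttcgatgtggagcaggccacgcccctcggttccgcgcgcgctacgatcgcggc
Thrsp: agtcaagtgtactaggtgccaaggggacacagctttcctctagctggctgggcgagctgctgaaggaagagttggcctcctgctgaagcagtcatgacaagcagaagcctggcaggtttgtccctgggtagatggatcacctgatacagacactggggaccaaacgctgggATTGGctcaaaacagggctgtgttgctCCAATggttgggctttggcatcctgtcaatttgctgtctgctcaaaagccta
The Hmgcs1 window held the SRE-like motif, which starts 137 bases before the start site, and 3 CCAAT boxes. The Insig1 window held an E-box 101 bases before the start and 1 CCAAT box. Fasn had 3 CCAAT boxes, of which the pair starting 62 and 59 bases before the start overlap on opposite strands, and Thrsp had 2. In GENCODE M21, Thrsp begins at 97417730 and Insig1 at 28071363, which lie inside their windows. By that annotation the rest of each window, with both CCAAT boxes of Thrsp, belongs to the gene itself.

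RefSeq windows of 300 bases, from 250 before to 50 after a start site, were at hand for 29 of the 35 members. Stard4, Fdps, Sqle, Fdft1, Scd1 and Dgat2 had none. A CCAAT box was found in a window of 14 of 14 sterol enzymes, 7 of 10 fatty acid and triglyceride members and 25 of all 29, against 44.2% of 3782 genes tested in liver that had a window and 41.1% of all 27025 genes. The SRE-like motif was found in 1 of 29 members, Hmgcs1, against 1.77% of the genes tested in liver and 1.44% of all genes. E-boxes lay in windows of 5 of 29 members (12.3% of tested and 8.09% of all genes), and GC boxes (GGGCGG) in 23 of 29 (68.8% and 38.2%). Of the motifs searched, a CCAAT box can share bases with its own reverse, as the pair in Fasn does, and the E-box reads the same on both strands. These counts describe letters in a window and not binding.

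The mevalonate arm turns acetyl-CoA units into farnesyl diphosphate. Its last enzyme, farnesyl diphosphate synthase (Fdps, ENSMUSG00000059743.12, chromosome 3, 89093588 to 89101959, minus strand, mm10), had 925, 276, 706, 1062 and 658 CPM in HET 1 to HET 5, against 412 and 306 CPM in WT 1 and WT 2. 4 HET livers lay above both WT livers, and HET 2 lay below both. The fitted log2 fold change was 1.09 ± 0.41 (SE), with an unadjusted p of 0.0179 and an adjusted p of 0.392. Over 14 alternative settings the adjusted p of Fdps ran from 0.0509 to 0.784 and its log2 fold change from 0.61 to 1.41. The exons of Fdps share 1124 bases, some near its 3′ end, with Gm43738, an annotated protein-coding gene on the same strand that had 0 counts.

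Hmgcs1, the synthase that makes HMG-CoA and carries the SRE-like motif shown above, had 683, 170.5, 195, 340.1 and 387 CPM in HET 1 to HET 5 and 361 and 309 CPM in WT. HET 1 was highest, HET 2 and HET 3 were lowest, and the WT livers lay between them. The log2 fold change was 0.15 ± 0.44 (adjusted p = 0.933), and without HET 1 it was −0.21. Mvk, mevalonate kinase, had 13.03, 18.0, 43.8, 60.5 and 41.5 CPM in HET and 51.5 and 43.8 CPM in WT. Pmvk, the next kinase, had 104, 44.4, 39.5, 75.6 and 62.3 CPM in HET and 116 and 58.4 CPM in WT. The groups overlapped in both, with log2 fold changes of −0.38 ± 0.56 and −0.30 ± 0.45 (adjusted p = 0.866 each), and that of Pmvk was 0.32 without WT 1. Mvd, the decarboxylase of the arm, ran from 6.93 CPM in HET 2 to 86.9 CPM in HET 4, with 38.7 and 32.1 CPM in WT (adjusted p = 0.985). Idi1, the isomerase, had 0 to 4 counts in a HET liver and 1 and 0 in WT, too few to test.

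The steps from farnesyl diphosphate to lanosterol could not be tested, since none of their 3 enzymes passed the filter on low counts. Fdft1, squalene synthase, had 0 counts in every liver, which over the 4163558 counts of the 7 libraries allows up to 0.721 CPM. Its exons share 774 bases, near its 3′ end, with Ctsb on the opposite strand, and Ctsb, which encodes the lysosomal protease cathepsin B, had 26 counts in the HET livers and 3 in the WT livers. Whether the counting used strand is not given, and the part of this overlap in the 0 counts was not tested. Sqle, squalene epoxidase, had 3, 0, 0, 0 and 29 counts in HET 1 to HET 5 and 2 and 1 in WT. Its counts stood mainly in HET 5, the deepest library, at 17.2 CPM against 12.9 CPM in WT 1 and 2.92 CPM in WT 2. The 0 counts of HET 2, HET 3 and HET 4 allow up to 4.16, 6.58 and 11.3 CPM, less than the value of HET 5. Lss, lanosterol synthase, had 2, 3, 1, 3 and 8 counts in HET and 0 and 2 in WT, so that no difference was detectable at this depth.

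Between lanosterol and cholesterol, 8 enzymes were listed and 5 tested. Dhcr7, which carries out the last reduction to cholesterol, had 132, 88.7, 132, 227 and 153 CPM in HET 1 to HET 5 and 96.6 and 93.4 CPM in WT. HET 2 lay below the WT livers and the other 4 above them, with a log2 fold change of 0.69 ± 0.39 (unadjusted p = 0.0922, adjusted p = 0.568). Ebp, a sterol isomerase, was the steadiest member: it had 616, 521, 620.4, 578 and 607 CPM in HET and 567 and 651 CPM in WT. Its highest HET liver exceeded its lowest by a factor of 1.19, and its log2 fold change was 0.04 ± 0.26 (adjusted p = 0.970), or −0.066 when scaled by total counts. Tm7sf2, a sterol reductase, had 134, 104, 134, 196 and 213 CPM in HET and 199.7 and 181 CPM in WT. Here HET 1, HET 2 and HET 3 lay below both WT livers and HET 5 above them (log2 fold change −0.21 ± 0.34, adjusted p = 0.878). Its exons share 532 bases, not near its 3′ end, with Vps51 on the same strand, which had 13 counts over the 7 livers.

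Nsdhl, a sterol dehydrogenase of the X chromosome, had 24.2, 9.70, 13.2, 18.9 and 55.7 CPM in HET and 25.8 and 0 CPM in WT. Its fitted log2 fold change of 1.53 ± 1.07 (adjusted p = 0.657) rested on the 0 counts of WT 2, which allow up to 8.76 CPM, and without WT 2 it was 0.06. Sc5d, a desaturase, ran from 46.0 CPM in HET 3 to 148 CPM in HET 5, with 103 and 120 CPM in WT (adjusted p = 0.873). The lanosterol demethylase Cyp51 averaged 15.01 ± 8.31 CPM in HET livers (SD, n = 5) and 7.60 ± 1.64 CPM in WT livers (SD, n = 2). Hsd17b7, a ketosteroid reductase, averaged 10.9 ± 6.98 CPM in HET livers and 4.38 ± 6.19 CPM in WT livers. Msmo1, a methyl sterol oxidase, averaged 4.45 ± 4.39 CPM in HET livers and 4.68 ± 2.49 CPM in WT livers. These 3 genes held at most 35 counts in a library and were not tested. Cyp51 also shares 166 exon bases at its 3′ end with Akap9 on the opposite strand.

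Stard4, a carrier that moves cholesterol between membranes, is on chromosome 18 (33199355 to 33213862, minus strand, mm10). It had 115, 52.7, 81.1, 102 and 65.2 CPM in HET 1 to HET 5, against 32.2 and 32.1 CPM in WT 1 and WT 2. Every HET liver exceeded both WT livers, and the group means were 83.3 ± 25.7 CPM in HET (SD, n = 5) and 32.2 ± 0.0776 CPM in WT (SD, n = 2). The WT values are 5 and 11 counts, so their closeness is finer than counting allows. The log2 fold change was 1.44 ± 0.48, the smallest p among the members (0.00755), and it did not pass after adjustment (adjusted p = 0.317). Over 14 alternative settings the log2 fold change ran from 1.29 to 1.57 and the adjusted p from 0.144 to 0.775.

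Of the 5 genes of SREBP control, 1 had a log2 fold change above 0 and 4 below, and 0 had an unadjusted p under 0.05. Srebf1, which encodes SREBP-1, had 299.7, 213, 237, 295 and 154 CPM in HET 1 to HET 5 and 289.95 and 333 CPM in WT. HET 5 was lowest and the upper HET livers reached the WT range, with a log2 fold change of −0.29 ± 0.32 (adjusted p = 0.790). Its exons share 109 bases at the 3′ end with Rai1 on the opposite strand, which had 80 counts. Srebf2, which encodes SREBP-2, averaged 58.7 ± 19.2 CPM in HET livers and 75.4 ± 11.8 CPM in WT livers (SD), and HET 4 with 90.7 CPM exceeded both WT livers. Scap had 125, 161, 199, 159 and 179.7 CPM in HET and 155 and 196 CPM in WT, and its log2 fold change was −0.00037 ± 0.32 (adjusted p = 0.999). Insig1, a brake on SREBP that is itself an SREBP target, had 80.0, 47.1, 63.6, 86.9 and 68.2 CPM in HET and 51.5 and 55.5 CPM in WT. 4 HET livers were above and HET 2 below the WT livers (log2 fold change 0.43 ± 0.41, adjusted p = 0.750). Insig2, the other brake, had 8.77 to 62.9 CPM in HET and 83.8 and 11.7 CPM in WT 1 and WT 2. HET 3 lay below both WT livers and the other 4 HET livers between them.

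**Figure D2:**
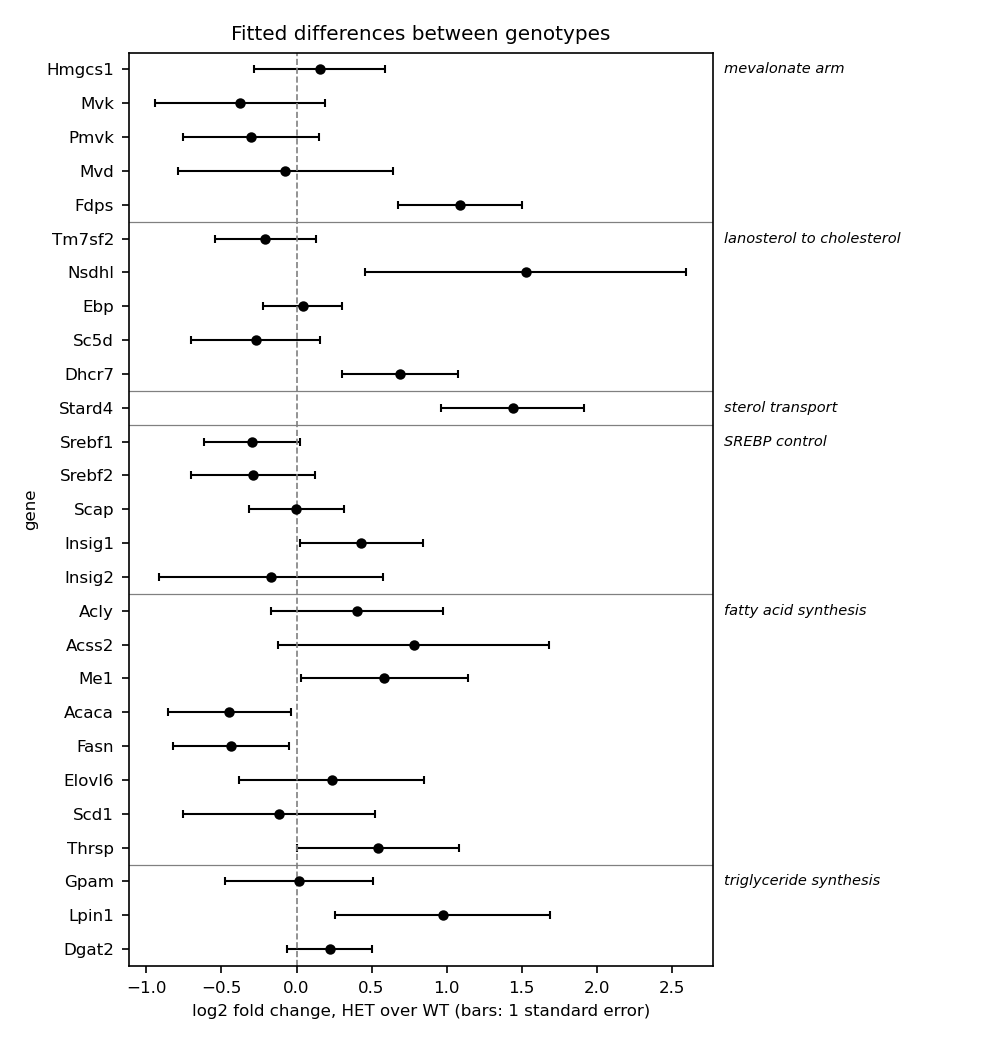
Fitted log2 fold change, HET over WT, of the 27 tested members by role (edgeR), with bars of 1 standard error. Values run from −0.45 (Acaca) to 1.53 (Nsdhl), and Stard4 and Fdps are the members at 1.44 and 1.09 that had an unadjusted p under 0.05.

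Of the 8 genes of fatty acid synthesis, 5 had a log2 fold change above 0 and 3 below. Fasn, fatty acid synthase, had 516, 164, 210.4, 571 and 390.2 CPM in HET 1 to HET 5 and 522 and 519.5 CPM in WT. HET 4 exceeded both WT livers, HET 1 came close to them, and HET 2 and HET 3 stood at less than any other liver, with a log2 fold change of −0.43 ± 0.39 (adjusted p = 0.732). Scd1, the desaturase that makes oleic acid, had 1541, 279, 294, 548 and 456 CPM in HET and 735 and 683 CPM in WT. HET 1 alone exceeded the WT livers and the other 4 HET livers lay below them. Its log2 fold change was −0.12 ± 0.64 (adjusted p = 0.967), and −0.76 without HET 1. Acaca, the carboxylase of the committed step, had 78.2, 54.1, 37.3, 45.3 and 50.4 CPM in HET and 90.2 and 67.1 CPM in WT (log2 fold change −0.45 ± 0.41, adjusted p = 0.738). Only HET 1 reached the WT range in Acaca.

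Thrsp, a small protein that accompanies lipogenesis, had 3373, 1096, 1657, 2577 and 793 CPM in HET 1 to HET 5 and 844 and 1932 CPM in WT. The WT livers differed from each other by more than a factor of 2, and the log2 fold change was 0.54 ± 0.54 (adjusted p = 0.769). It was 0.16 without WT 1 and 1.25 without WT 2. The suppliers of acetyl-CoA and NADPH had their highest values in HET 1 or HET 5: Acss2, acetyl-CoA synthetase, had 110.3 CPM in HET 5 and 13.9 CPM in HET 2, with 45.1 and 17.5 CPM in WT. Acly, ATP citrate lyase, had 19.4 CPM in HET 2 to 76.5 CPM in HET 5, with 38.7 and 32.1 CPM in WT, and Me1, malic enzyme, 26.3 CPM in HET 3 to 115 CPM in HET 1, with 64.4 and 32.1 CPM in WT. Elovl6, an elongase, had 11.0 CPM in HET 3 to 57.7 CPM in HET 1, with 12.9 and 40.9 CPM in WT. The adjusted p of these 4 genes lay between 0.749 (Me1) and 0.929 (Elovl6). The exons of Acss2 share 395 bases, not near its 3′ end, with Gss on the opposite strand, which had 753 counts over the 7 livers.

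Of the triglyceride genes, Dgat2, the acyltransferase of the last step, was steady: it had 1199, 1306, 1389.8, 1213 and 983 CPM in HET 1 to HET 5 and 1012 and 1229 CPM in WT. The log2 fold change of Dgat2 was 0.22 ± 0.28 (adjusted p = 0.835). Lpin1, a phosphatidate phosphatase, had 503, 152, 127, 193 and 751 CPM in HET and 161 and 204 CPM in WT. HET 1 and HET 5 stood apart from the other 5 livers, and the log2 fold change of 0.97 ± 0.71 (adjusted p = 0.682) came to 0.50 without HET 5. Gpam, which adds the first fatty acid to glycerol phosphate, had 76.3, 27.7, 39.5, 34.0 and 81.8 CPM in HET and 70.9 and 43.8 CPM in WT (log2 fold change 0.02 ± 0.49, adjusted p = 0.996). Its direction turned with scaling by total counts, at −0.06. Pnpla3, a lipid-droplet protein, had 0 counts in every liver.

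The 2 branches were set against each other in each liver as the mean of log2(CPM + 1) over the 17 sterol enzymes and over the 12 fatty acid and triglyceride members. The sterol mean over the 5 HET livers was 4.80 with an SD of 0.56, and over the 2 WT livers 4.68 with an SD of 0.24. The fatty acid mean was 6.56 ± 0.59 in HET livers and 6.56 ± 0.022 in WT livers. The sterol minus fatty acid difference was −2.09, −1.84, −1.72, −1.54 and −1.57 in HET 1 to HET 5 and −1.73 and −2.04 in WT 1 and WT 2. HET 1 lay beyond the WT values on the lower side and 3 HET livers on the upper side. The difference between groups, HET minus WT, was 0.13, less than the SD of 0.22 between livers in each group, and −0.024 without WT 2. No test was made of it. Among the tested members, 5 of 10 sterol enzymes had a log2 fold change above 0, with a median of −0.02, and 8 of 11 fatty acid and triglyceride members, with a median of 0.23. These medians put the fatty acid branch higher in HET, where the means per liver put the sterol branch higher, so the sign depends on the measure. Without WT 1 the sterol median was 0.34 and the fatty acid and triglyceride median 0.18, which turns their order, and without HET 5 the fatty acid and triglyceride median was 0.077. Over all tested genes 2501 of 4803 were above 0, with a median of 0.03.

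**Figure D3:**
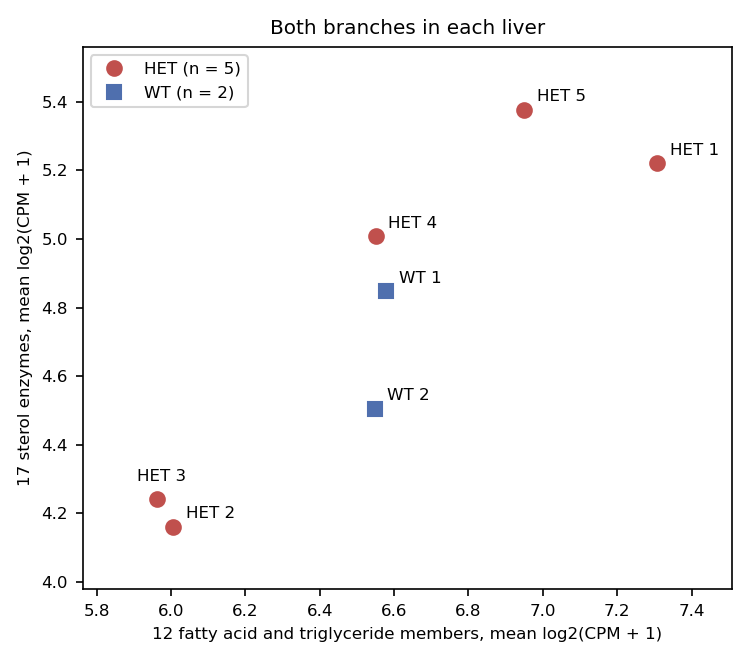
Mean log2(CPM + 1) of the 17 sterol enzymes (vertical) against that of the 12 fatty acid and triglyceride members (horizontal), 1 point a liver. HET 2 and HET 3 are at the low end of both axes (4.16 and 4.24, 6.01 and 5.96), HET 1 and HET 5 at the high end of both, and the WT livers between them.

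The members differed widely among the HET livers. HET 2 or HET 3 was the lowest of the 5 HET livers in 22 of the 27 tested members, HET 2 in 15 of them and HET 3 in 7, and HET 4 in 0. Over all 4803 tested genes HET 2 or HET 3 was lowest in 43.6%, and in 34.5% after scaling by TMM factors, which left the members' count at 22. These 2 livers were singled out after their values were seen, and the members are not independent, so the counts are a description. The exceptions were Mvk and Scap, lowest in HET 1, and Srebf1, Thrsp and Dgat2, lowest in HET 5. Summed over the 35 members, HET 1 to HET 5 held 11110, 5046, 6443, 8845 and 6826 CPM, and WT 1 and WT 2 6295 and 7320 CPM. HET 1 stood highest and HET 2 lowest of the 7 livers in this sum.

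HET 2 and HET 3 also held the most acute-phase transcripts of the 7 livers. A list of 13 acute-phase genes summed to 20594, 45025, 75025, 21847 and 12393 CPM in HET 1 to HET 5 and to 21933 and 26862 CPM in WT 1 and WT 2. Saa1, a serum amyloid protein made in inflammation, had 544, 4326, 8821, 510.1 and 77.1 CPM in HET and 567 and 703 CPM in WT. The part of an acute-phase state in the members' values was not tested. HET 1 to HET 5 held 537247, 721427, 456180, 264660 and 1686234 counts, and the part of depth was not tested. The coefficient of variation over the HET livers had a median of 48.7% over the 27 members and 35.2% over all tested genes. Among genes with a HET mean of at least 100 CPM it was 38.0% over 12 members and 25.04% over 1279 genes. Scd1 (84.2%), Lpin1 (79.0%), Hmgcs1 (57.8%) and Thrsp (56.2%) varied most among those 12 members, and Ebp (6.98%) and Dgat2 (12.5%) least.

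**Figure D4:**
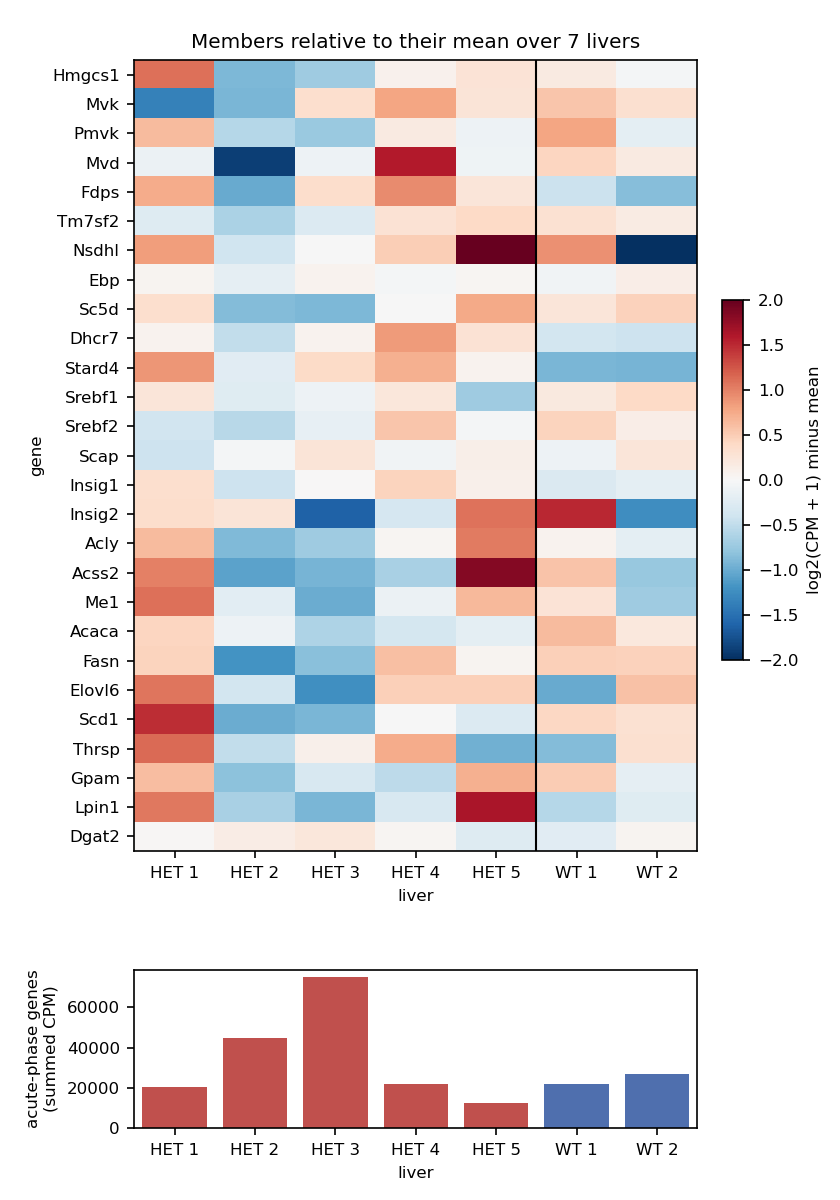
Upper panel, log2(CPM + 1) of each tested member minus its mean over the 7 livers, with the colour scale ending at 2 in either direction, HET livers left of WT livers. Lower panel, summed CPM of 13 acute-phase genes in the same livers, highest in HET 3 (75025) and HET 2 (45025), whose columns above are mostly blue, that is, below the mean.

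Other genes of lipid synthesis, from a list of 30, had 22 members tested, of which 0 passed in either direction. At an unadjusted p under 0.05, 3 were lower and 0 higher in HET, against 4.96% and 5.39% of all tested genes. Mlxipl, which encodes the glucose-responsive factor ChREBP, had 257, 146, 202, 208 and 226 CPM in HET 1 to HET 5, against 289.95 and 543 CPM in WT (log2 fold change −0.93 ± 0.30, adjusted p = 0.304). Slc25a1, the mitochondrial citrate carrier, had 553, 511, 658, 741 and 502 CPM in HET, against 889 and 1065 CPM in WT (−0.63 ± 0.27, adjusted p = 0.434). In both genes every HET liver lay below both WT livers, as in 3 of the 22 tested genes of this list and in 11.1% of all tested genes. Of 17 other sterol genes, 13 were tested and 0 passed, with 6 log2 fold changes above 0 and 7 below. Rdh11, a retinol dehydrogenase, had 54.0, 5.54, 19.7, 64.2 and 52.8 CPM in HET and 12.9 and 11.7 CPM in WT (log2 fold change 1.72 ± 0.87, adjusted p = 0.515).

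In pancreas the same 35 genes were scarce and patchy. They summed to 493 to 1004 CPM in HOM pancreata, 886 to 1498 CPM in HET pancreata and 584 to 2118 CPM in WT pancreata, with 5046 to 11110 CPM in HET livers and 6295 and 7320 CPM in WT livers. A pancreas library held 49502 to 1326541 counts, and 4 to 21 members had any count in it. Scd1, Gpam, Srebf1, Stard4, Nsdhl, Idi1 and Pnpla3 had 0 counts in all 11 pancreata. Fasn was counted in 3 pancreata, with 2 counts for HOM 10, 553 for HET 11 and 58 for HET 16. HET 11 and HET 16 stood apart from the other pancreata in depth, with 1326541 and 670588 counts, and held 19 and 21 of the members. Tm7sf2 was the member counted in the most pancreata, 10 of 11. The 2 tissues come from separate tables and no test was made between them.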

How the data were processed

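TRI reagent was used to extract RNA of liver and pancreas, and libraries followed bulk MARS-seq, per the labels' protocols. Cutadapt, STAR and the build mm10 are named in the submitters' processing notes. How reads were assigned to genes, with which annotation, by strand or not, and whether barcodes were collapsed is not given in the sources used here. Each tissue has a deposited table of counts in whole numbers, which the authors call corrected without saying for what. The p-values hold only if that correction left them close to counts.

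HET and WT livers were compared with edgeR 4.0.16 in R 4.3.3 (filterByExpr, TMM, robust quasi-likelihood fit, 5 residual degrees of freedom), with Benjamini-Hochberg adjustment over 4803 genes and a threshold of 0.05. The SE is the log2 fold change divided by the root of its F. The common dispersion was 0.125, a biological coefficient of variation of 35.4%. The fit was tried on simulated data with changes larger than any fitted for the members. That trial does not show how small a difference the test could have called. Alternatives were DESeq2 1.42.0, other scalings and filters, no robust estimation, a replicate block and leaving out each liver. The order of HET livers under TMM scaling was added after seeing the data. Positions and exon overlaps are from GENCODE M21 (mm10). Limits for 0 counts are 3 counts of the total and cover counting error only. All 18 columns were matched to samples and 0 were left over.

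The members and gene lists were chosen with earlier results of these data known. Values in every liver are given for the 3 members of each role with the highest mean CPM and the 2 with the smallest p, and each other list adds its 2 genes with the smallest p. Some items are not reported here. Beyond that rule, Saa1, Fgb, Ctsb, Ctrb1, the remaining members and the minimum of 100 CPM were chosen after values were seen.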

Additional observations from a re-analysis of the deposited data

Results flagged for a closer look

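In the 5 HET livers, 36 groups of values (33 members with counts and 3 branch means) were examined for a library far from the others. This found 3, where chance gives about 1 in 20 for independent values with a normal distribution. The members' CPM were not put on a log scale and the groups are not independent, so that rate is only a rough guide here. HET 1 had 1541 CPM of Scd1, with the next HET liver at 548 CPM. HET 4 had 86.9 CPM of Mvd, with the next at 26.7 CPM. HET 4 also had 11.3 CPM of Lss, with the next at 4.74 CPM, which are 3 and 8 counts. The WT livers had 735 and 683 CPM of Scd1, 38.7 and 32.1 CPM of Mvd, and 0 and 5.84 CPM of Lss.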

How the results depend on the processing

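No member was called under any of the 14 alternatives, where 26 to 33 members were tested. The number of genes called, 0 with the settings of the report, was 16 with DESeq2, 57 with no filter, 6 with a mean of at least 10 CPM and 41 with the replicate block, and 0 to 6 when a liver was left out. With DESeq2 size factors, total-count scaling and no robust estimation it stayed at 0. The replicate block paired livers that share only a number: their deviations correlated at −0.02 for each number, and 1 residual degree of freedom was left. The median log2 fold change over the tested genes, 0.027, became −0.073 when scaled by total counts, and there Ebp was at −0.066 and Gpam at −0.061. Without a filter that median was 0.43. Gpam was at −0.0051 with DESeq2 and at −0.16 with the block. Scap was at 0.15 with no filter and 0.034 with at least 10 CPM, and Scd1 at 0.027 with no filter. Leaving out a liver took the log2 fold change of Hmgcs1 from −0.21 to 0.36, Pmvk from −0.77 to 0.32, Scap from −0.11 to 0.18, Gpam from −0.35 to 0.44, Scd1 from −0.76 to 0.064, Thrsp from 0.16 to 1.25 and Ebp from −0.010 to 0.13. The sterol median ran from −0.071 to 0.34 and the fatty acid and triglyceride median from 0.077 to 0.42. That of Nsdhl ran from 0.06 to 7.14, and the last was no measured fold, since the WT liver that remained had 0 counts. Without HET 5 Nsdhl was not tested. Among the members followed gene by gene, the other 126 values from the settings that kept all livers did not change direction or call. The directions of Mvd, Sc5d, Srebf2, Insig2, Acly, Acss2, Me1 and Elovl6 were not followed over the settings. The branch difference ran from −0.024 to 0.29. Leaving out a WT liver assumes that the other varies as the HET livers do. The WT side rests on 2 libraries, of which WT 1 had 155201 counts, and a single count there is 6.44 CPM.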

Other observations

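Genes of sterol disposal and of fasting were also measured, and 0 of 8 and 0 of 11 tested genes of these lists passed edgeR's test. Cyp7a1, the rate-limiting enzyme of bile acid synthesis from cholesterol, had 87.5, 18.0, 28.5, 18.9 and 55.7 CPM in HET 1 to HET 5, against 0 and 8.76 CPM in WT 1 and WT 2. All HET livers were above both WT livers, as they were in 6.95% of all tested genes (log2 fold change 2.93 ± 0.93, adjusted p = 0.294). However, 3 counts in WT 1 would be 19.3 CPM, more than 2 of the HET values. Lcat, which esterifies cholesterol in plasma, had 563 to 805 CPM in HET and 979 and 1065 CPM in WT (−0.46 ± 0.27, adjusted p = 0.584). Angptl4, an inhibitor of lipoprotein lipase, had 329 to 534 CPM in HET and 289.95 and 301 CPM in WT (0.67 ± 0.30, adjusted p = 0.463). Acot2, a mitochondrial thioesterase, had 4.38 to 16.8 CPM in HET and 32.2 and 43.8 CPM in WT (−1.69 ± 0.64, adjusted p = 0.392).

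Fgb, a fibrinogen chain made by hepatocytes, had 3.78 to 8.77 CPM in HET and 12.9 and 5.84 CPM in WT.

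All 11 tested acute-phase genes had a log2 fold change above 0, as did 2501 of all 4803 tested genes, and 0 passed. The list of 13 summed highest in HET 2 and HET 3, at 45025 and 75025 CPM. In HET 1, HET 4 and HET 5 it summed to 20594, 21847 and 12393 CPM, less than the 21933 and 26862 CPM of WT. Orm1, an acid glycoprotein, had 1198 to 5364 CPM in HET and 1263 and 908 CPM in WT, and its adjusted p was 0.478. Crp, C-reactive protein, had 28.5 to 135 CPM in HET and 45.1 and 23.4 CPM in WT (adjusted p = 0.644). Of 7 tested clock genes 1 was above 0 and 6 below, and 0 passed. Per3, a period gene, had 11.3 to 24.2 CPM in HET and 19.3 and 78.8 CPM in WT (adjusted p = 0.364), and Nr1d1, a repressor of the clock, 40.2 to 339 CPM in HET and 367 and 236 CPM in WT (adjusted p = 0.657).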
